A study of Homo sapiens with 10 samples.

Results

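Genes of the G2 phase and of mitosis were examined in sorted and unsorted human gastric cancer cells. A list of 43 such genes was given by name, and each was read from its brightest probe set among those annotated with exactly 1 gene symbol. All 43 were measured, among 19775 genes in all. Of these, 42 passed the filter on low values that left 9888 genes for testing. INCENP fell below the filter and is given with its values only. The list was set by name rather than by a rule on levels, with earlier results of these data known.

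The study profiled side population cells of gastric cancer lines. These are the few cells that stain weakly with Hoechst, a dye of DNA, since membrane transporters of the ABC family export it, and flow cytometry separates them from the brightly stained remainder, the non-side population. In all, 4 arrays held side population cells (replicates a, b, c and d), 4 held non-side population cells (a, b, c and d) and 2 held unsorted cells (a and b). The origin label of every array names AGS and MKN 45, which are established lines from gastric carcinomas. The source label names AGS on 8 arrays and no line on side population replicates a and b, so the line behind those 2 arrays is not settled by the labels. No group carried a drug or a genetic change according to the labels, and all cells were grown in RPMI medium with fetal bovine serum and detached with trypsin. The labels do not say that replicates came from separate cultures, so p-values measure the spread between these arrays, which may be technical.

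Cells enter mitosis when the kinase CDK1, bound to a cyclin B, becomes active. Chromosomes then attach through kinetochores to the spindle, the spindle checkpoint holds the cell until attachment is complete, and the anaphase-promoting complex destroys cyclin B and securin so that the sister chromatids part and the cell divides. Many of the genes involved are controlled by the DREAM and MuvB complexes, B-MYB and FOXM1. Known promoter elements of this control are the CHR and the CCAAT box. Such genes are transcribed together late in the cycle. In a culture their summed transcript level therefore follows the share of cells in G2 and mitosis. On these arrays of pooled cells, fewer cells in that phase and less RNA per cell cannot be told apart.

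Markers of the gastric epithelial lines matched the labels, with 8 of 8 above the array median on all 10 arrays. Of the 4 blood markers measured, 0 were above the median on every array. ITGAM, a myeloid integrin, was above it on 9 arrays, all 8 sorted ones among them (52.5 to 201.3 over the 10), CD14 on 3 (6.2 to 112.1) and PTPRC and CD3E on 0. Their summed intensities were 173.4 to 291.3 in side population, 158.9 to 302 in non-side population and 128.9 to 134.6 in unsorted arrays, with PTPRC, the pan-leukocyte antigen, at 2.2 to 34.4. Of the 8 endothelial and fibroblast markers, COL1A1 was above the median on all 10 arrays, PECAM1 on 8 (52.8 to 200.8 over the 10), DCN on 3 (26.9 to 120.4) and the other 5 on 0. Several libraries stood apart. The actin control had a 3' to 5' ratio of 3.34 in side population replicate a and of 0.987 to 1.28 on the other arrays. For 18S ribosomal RNA, the control at the 5' end was low in unsorted cells (274.6 and 828.3), in array d of the side population (851.2) and in array c of the non-side population (563), and was 22182.4 to 33704 on the others. GATA6 was lower and CEACAM5 was higher in both sorted groups than in unsorted cells, with log2 fold changes of side population over unsorted of -1.82 and 2.44 (adjusted p = 0.0202 and 0.00754 by limma). Of the 8 epithelial markers 7 were lower in the side population than in unsorted cells, and of the 4 tested genes linked to MKN 45 2 were. The part of these differences in the results below was not tested, and results that rest on these arrays are given without them where that changes them.

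The joint level of the genes separated the arrays of the side population from each other more than it separated the groups. The mean log2 intensity over the 43 genes was 11.60, 11.51, 11.15 and 11.00 in side population replicates a, b, c and d. It was 11.52, 11.65, 11.33 and 11.65 in non-side population replicates a to d, and 11.67 on both unsorted arrays. Side population c and d were thus the lowest 2 of the 10 arrays, while a and b lay inside the range of the non-side population. Gene by gene, 34 and 27 of the 43 were above their own mean over the arrays in side population a and b, but 4 were in c and 0 in d. In non-side population arrays the counts were 27, 22, 16 and 36, and in unsorted cells 31 and 30. Over all 9888 genes tested, the array means differed little, from 10.08 to 10.25.

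**Figure D1:**
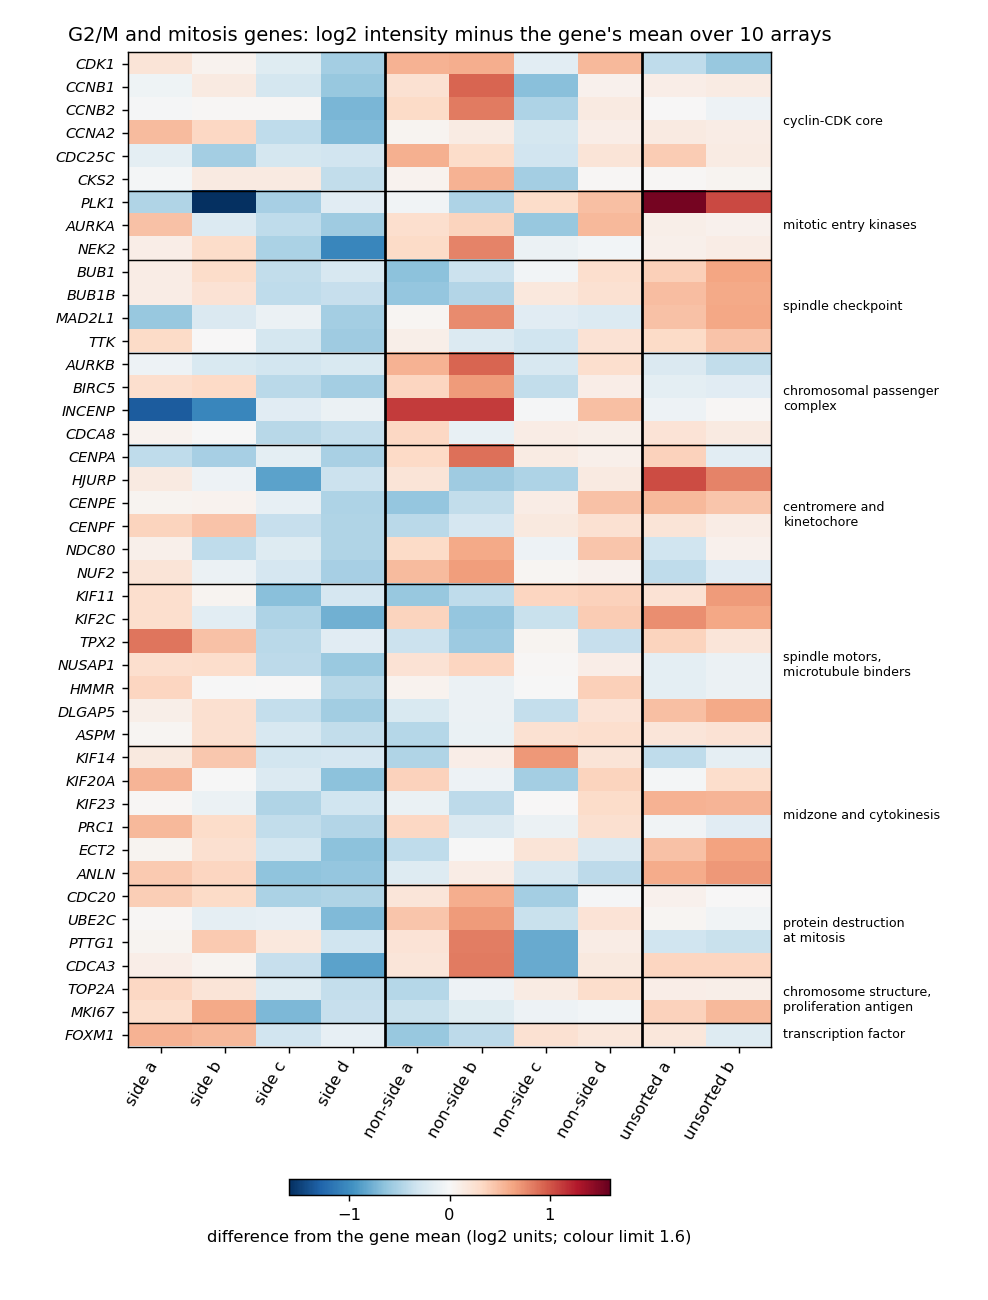
Log2 intensity of each of the 43 genes (rows, grouped by role) minus the gene's mean over the 10 arrays (columns, by group and replicate letter), with red above and blue below the mean. Side population replicate d is blue for all 43 genes and replicate c for 39, whereas CDC25C, PLK1, MAD2L1, AURKB, INCENP and CENPA are blue in all 4 side population arrays.

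The array lowest for a gene was side population d for 17 of the 42 tested genes, where 3.82% of all genes tested were lowest on that array. Both c and d of the side population lay below the other 8 arrays for 8 genes (1.42% of all genes): CCNA2, NEK2, BIRC5, CDCA8, NUSAP1, PRC1, ANLN and MKI67. The highest array was most often non-side population b. From lowest to highest array the genes spanned 1.66-fold to 8.79-fold with the added constant. ASPM, which organises spindle poles, spanned the least, and PLK1 the most.

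**Figure D2:**
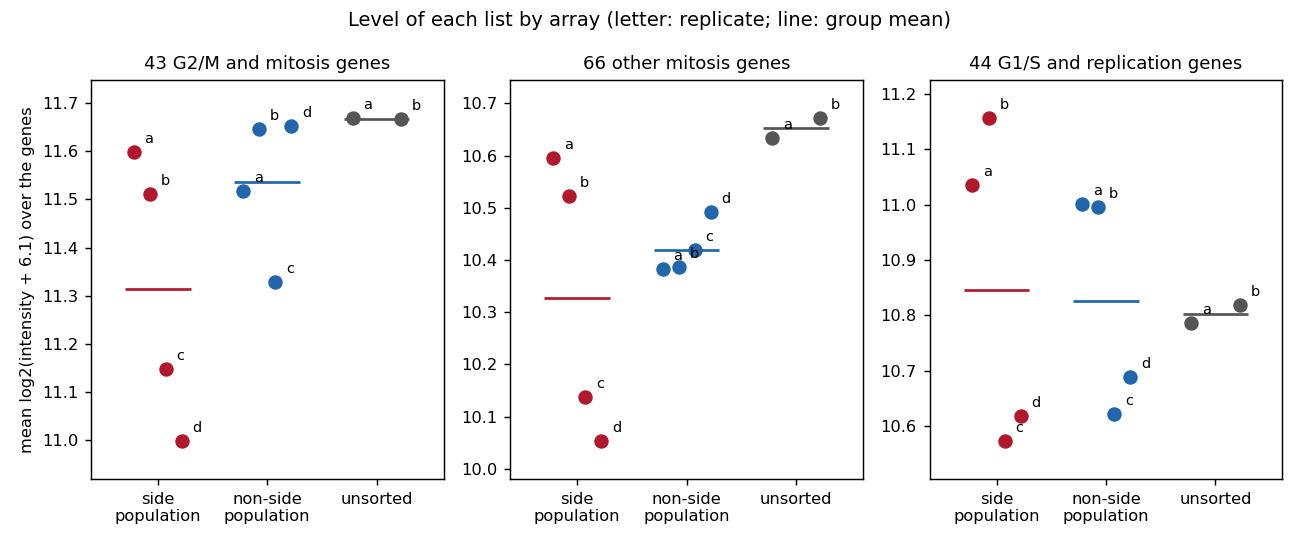
Mean log2(intensity + 6.1) over the genes of each list, with 1 point per array labelled by its replicate letter and a line at the group mean, for the 43 genes, 66 other mitosis genes and 44 genes of G1/S and DNA replication. Side population c and d are the lowest arrays in the first 2 panels, and in the third the c and d arrays of both sorted groups lie below their a and b arrays.

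The promoters of the listed genes were also searched for the elements of late cell cycle transcription, whatever the levels on the arrays. Genes of this kind are known for such elements, so the shares describe the list and not its levels here. RefSeq start sites (GRCh38.p14) were available for 37 of the 43, and UBE2C, TPX2, TTK, FOXM1, BIRC5 and AURKA had no entry. The window was the 250 bases before the start, on both strands, and the first start was taken where several were listed. The CHR letters TTTGAA were present in 20 of 37 windows (54.1%) and in 13.6% of 27305 promoters of the same length. The other CHR form, TTCGAA, was in 0 of 37 and in 1.2% of promoters. CCAAT was in 30 of 37 (81.1%) and in 33.0% of promoters, and both elements in 18 (48.6%) and 5.2%. No 2 of these motifs share bases in the windows shown. A match describes letters in a window, not a bound site.

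The windows below belong to the 6 genes with the CHR letters that had the smallest p-values in the comparisons of groups. They run 5′ to 3′ in the direction of the gene, end at the base before the start site, and show the CHR letters and the CCAAT box, read on either strand, in capitals. PLK1 is at chr16:23678639-23678888 (plus strand), HJURP at chr2:233854536-233854785 (minus), CENPA at chr2:26785806-26786055 (plus), CDK1 at chr10:60778081-60778330 (plus, the first of 2 listed starts), KIF23 at chr15:69414099-69414348 (plus) and ANLN at chr7:36389612-36389861 (plus).
PLK1: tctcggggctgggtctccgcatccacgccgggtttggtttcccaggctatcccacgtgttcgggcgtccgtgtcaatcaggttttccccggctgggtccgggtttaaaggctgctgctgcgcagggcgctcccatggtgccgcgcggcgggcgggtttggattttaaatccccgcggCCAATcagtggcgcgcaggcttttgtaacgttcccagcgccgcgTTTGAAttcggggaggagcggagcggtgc
HJURP: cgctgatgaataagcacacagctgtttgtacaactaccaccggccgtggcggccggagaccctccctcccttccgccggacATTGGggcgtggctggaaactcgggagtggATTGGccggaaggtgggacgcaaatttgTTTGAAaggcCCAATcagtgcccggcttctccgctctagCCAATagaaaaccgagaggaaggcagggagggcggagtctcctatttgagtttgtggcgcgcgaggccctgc
CENPA: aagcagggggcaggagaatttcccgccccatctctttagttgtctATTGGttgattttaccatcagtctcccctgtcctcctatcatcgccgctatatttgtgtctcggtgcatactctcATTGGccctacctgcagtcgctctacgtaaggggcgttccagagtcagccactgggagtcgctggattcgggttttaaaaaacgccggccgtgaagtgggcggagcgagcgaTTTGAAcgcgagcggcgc
CDK1: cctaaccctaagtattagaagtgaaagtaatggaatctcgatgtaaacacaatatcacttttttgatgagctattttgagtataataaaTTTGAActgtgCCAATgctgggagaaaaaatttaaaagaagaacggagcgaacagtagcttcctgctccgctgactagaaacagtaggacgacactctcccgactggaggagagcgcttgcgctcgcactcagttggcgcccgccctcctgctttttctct
KIF23: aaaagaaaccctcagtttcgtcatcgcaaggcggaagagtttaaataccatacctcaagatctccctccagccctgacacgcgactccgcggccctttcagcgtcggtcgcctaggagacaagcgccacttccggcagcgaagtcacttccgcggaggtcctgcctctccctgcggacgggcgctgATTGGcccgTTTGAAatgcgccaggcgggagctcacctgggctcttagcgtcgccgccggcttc
ANLN: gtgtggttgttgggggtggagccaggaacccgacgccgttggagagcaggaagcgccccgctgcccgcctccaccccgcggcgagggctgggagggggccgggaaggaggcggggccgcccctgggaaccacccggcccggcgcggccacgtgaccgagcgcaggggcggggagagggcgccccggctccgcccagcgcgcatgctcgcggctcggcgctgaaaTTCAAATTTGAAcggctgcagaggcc

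In PLK1 the TTTGAA ran from base 29 to base 24 before the start, with a CCAAT at 73 to 69. In CENPA it lay at 18 to 13, below a pair of CCAAT letters on the opposite strand. KIF23 had it at 55 to 50 and HJURP at 111 to 106, among 4 CCAAT. ANLN held the letters on both strands side by side, at 26 to 21 and 20 to 15, and no CCAAT. Of the other genes described here, AURKB, NEK2 and MAD2L1 had CCAAT without the CHR letters, and NDC80, NUF2, CDC25C and KIF2C had neither in the window.

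The central comparison was between side and non-side population cells. No single gene of the list passed the test, but the values leaned one way: 34 of the 42 tested genes were lower in the side population, where 42.7% of all genes tested had a negative fold change. CENPA, the histone H3 variant that marks centromeres, was the only tested gene of the list whose 2 groups did not overlap. The kinases PLK1 and AURKB and the kinetochore genes NDC80 and NUF2 were lower in the side population in all 4 letters. By limma, 0 of the 42 were called at an adjusted p under 0.05, with 0% of all genes called in this comparison. At an unadjusted p under 0.05 there were 7 (16.7%), all lower, where 4.35% of all genes had such a p and 1.24% were also lower. The median log2 fold change was -0.12 over the 42 and 0.05 over all genes tested. Over the 43 genes it was also -0.12, and it was -0.44 over the arrays whose source label names AGS and -0.29 with the mean of all probe sets of a gene. It was -0.27 without side population a, -0.21 without b, -0.08 without c and -0.05 without d, and -0.20 without non-side population a and -0.30 without c. The number of negative genes was 22 without side population d and 28 to 39 with each other array left out. The 7 genes with an unadjusted p under 0.05 became 2 without side population d (4% of all genes), 3 without non-side population a or b (2.06% and 2.75%), 4 without either unsorted array (3.11%) and 13 without non-side population c (12.3%).

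Among the genes of the cyclin-CDK core, all 6 had negative fold changes, from -0.51 to -0.06 on the log2 scale. CDK1, the kinase that drives mitotic entry, read 14443.6, 13035.5, 10957.3 and 8606.4 in side population a to d and 18334.1, 18813.8, 11106.9 and 17918.7 in non-side population a to d. Each side population array was below the non-side array of its letter, but non-side c overlapped the side population. The log2 fold change was -0.49 ± 0.22 (SE, n = 4 and 4; limma adjusted p = 0.997). CDC25C, the phosphatase that activates CDK1, read 674.7, 512.9, 616.1 and 605.8 against 1113.1, 921.1, 603.5 and 866, with only non-side c inside the range of the side population (-0.51 ± 0.22, adjusted p = 0.997). The mitotic cyclins CCNB1 and CCNB2 were at -0.35 ± 0.29 and -0.37 ± 0.27. CCNA2, the cyclin of S and G2 phase, was at -0.08 ± 0.26 and CKS2, a small CDK-binding subunit, at -0.06 ± 0.23. The other probe set of CCNA2 was at -0.55.

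The 3 mitotic entry kinases were all lower in the side population. PLK1, which acts from mitotic entry to cytokinesis, read 497.5, 224.2, 481.2 and 613.4 in side population a to d and 671.3, 491.3, 857.1 and 972.9 in non-side population a to d. The side array was lower within every letter, while the groups overlapped through side d and a and non-side b. The group means were 454 ± 164 and 748 ± 212 (SD, n = 4 each), and the log2 fold change was -0.76 ± 0.31 (SE, adjusted p = 0.997). NEK2, a kinase of centrosome separation, read 3380.1, 3843.1, 2202.3 and 1520.1 against 3876.9, 5463.8, 2941.1 and 3040.3, again lower in every letter with overlapping groups (-0.53 ± 0.29). AURKA, the centrosomal Aurora kinase, was at -0.32 ± 0.28.

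The chromosomal passenger complex corrects faulty attachments at centromeres and consists of the kinase AURKB, its scaffold INCENP, survivin (BIRC5) and borealin (CDCA8). Its mean log2 level over the 4 genes was 9.73 to 9.82 in side population arrays and 9.93 to 10.72 in non-side population arrays, so the groups did not overlap. That rests on INCENP, which was below the filter: over the 3 tested genes the mean was 11.20, 11.15, 10.73 and 10.74 in side population a to d and 11.53, 11.62, 10.95 and 11.28 in non-side population a to d, and the groups overlapped through non-side c. AURKB read 1760.9, 1572.9, 1516.7 and 1578.4 in the side population, the smallest spread of any of the 42 genes there, and 2735.6, 3559, 1559 and 2243.4 in the non-side population. Non-side c was the 1 array of that group within the side population range. The log2 fold change was -0.59 ± 0.24 (SE, limma adjusted p = 0.997).

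INCENP, measured by a dim probe set, read 41.1, 51.5, 98.2 and 104.7 in side population a to d and 251.8, 252.5, 110.7 and 160 in non-side population a to d. The groups did not overlap, and a and b of the side population were below the median of their own arrays (70.4 and 75.2). Without the filter the log2 fold change was -1.34 ± 0.39 (SE, limma adjusted p = 0.976). BIRC5 read 4750.6, 4911.8, 2912.3 and 2711.3 against 5003.1, 6326.8, 2995.8 and 4247.2, lower in every letter by little (-0.28 ± 0.27). Its other probe sets were not of 1 sign in this comparison. CDCA8 was at -0.30 ± 0.20.

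**Figure D3:**
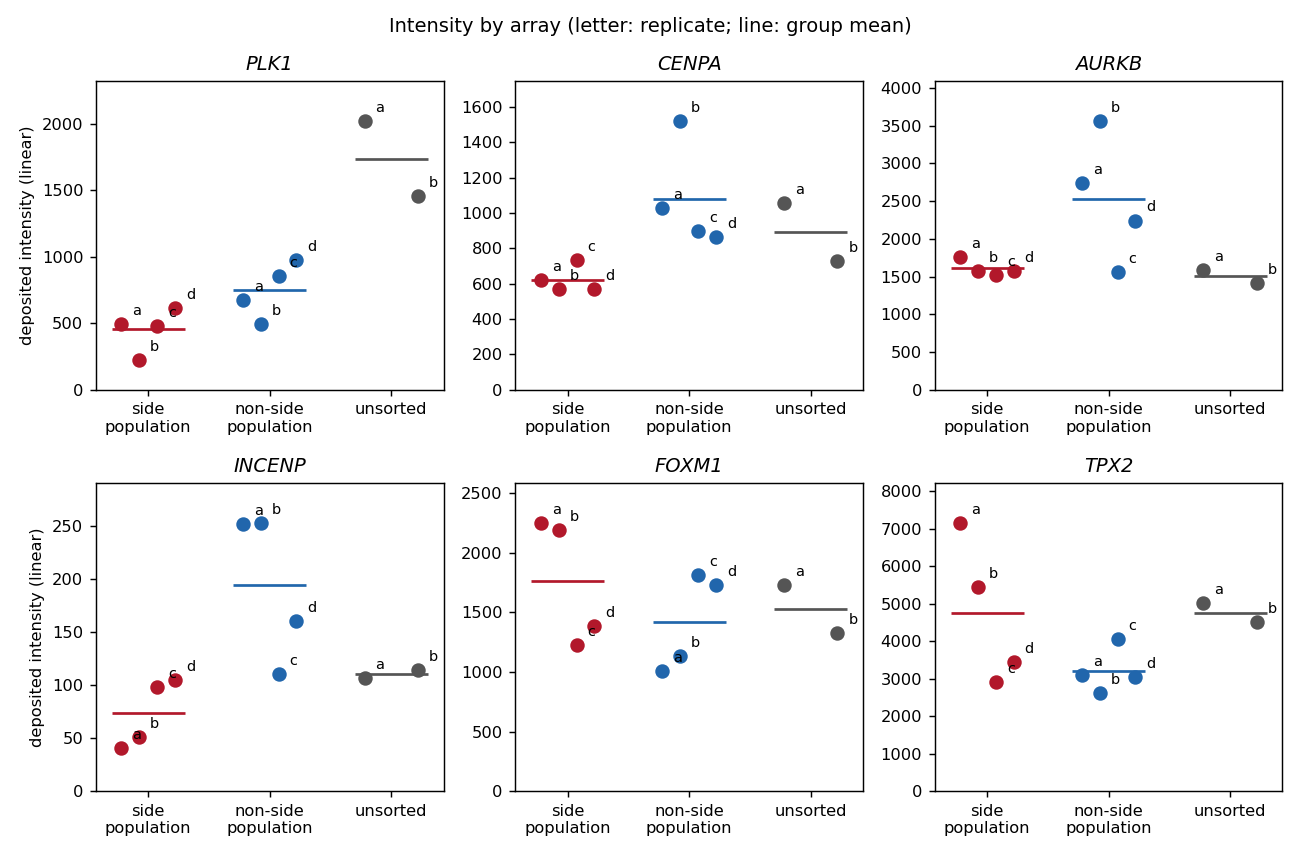
Deposited intensity on a linear scale starting at 0 for PLK1, CENPA, AURKB, INCENP, FOXM1 and TPX2, with 1 point per array labelled by its replicate letter and a line at the group mean. CENPA and INCENP do not overlap between side and non-side population, PLK1 is highest on the 2 unsorted arrays, and FOXM1 and TPX2 are high in side population a and b only among the side population arrays.

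At the centromere and kinetochore, CENPA read 618.5, 568.2, 735.4 and 569.5 in side population a to d and 1029.2, 1520, 898.1 and 866.4 in non-side population a to d. All 4 side population arrays were below all 4 non-side arrays, which held for 0.576% of all genes tested. None of the 42 lay wholly above, where 1.01% of all genes did. The log2 fold change was -0.76 ± 0.23 (SE, adjusted p = 0.997), or 0.592 of the non-side level. NDC80 and NUF2, partners in the complex that grips spindle microtubules, differed in the same direction. NDC80 read 2668.4, 1899, 2185.9 and 1798.5 against 3126.3, 3828.9, 2378.4 and 3423.8 (-0.57 ± 0.22), and NUF2 read 3258, 2625.5, 2339.4 and 1939.3 against 4015, 4489.4, 2867.7 and 2947.1 (-0.49 ± 0.22). Both were lower in the side population in every letter, with overlapping groups. HJURP, the chaperone that loads CENPA, was at -0.11 ± 0.26, the kinetochore motor CENPE at -0.03 ± 0.25 and CENPF at 0.07 ± 0.25.

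Most of the remaining genes lay nearer to 0. The spindle checkpoint genes BUB1, BUB1B, MAD2L1 and TTK were at 0.13, 0.06, -0.47 and -0.08 on the log2 scale, each with an SE of 0.23 to 0.25. The 7 spindle motors and microtubule binders ran from -0.29 (NUSAP1) to 0.49 (TPX2, which activates AURKA on the spindle), with 6 negative. The 6 genes of the midzone and cytokinesis, among them the kinesins KIF14, KIF20A and KIF23 and the microtubule bundler PRC1, ran from -0.17 to 0.07. Of the genes of protein destruction, UBE2C, an E2 enzyme of the anaphase-promoting complex, was at -0.49 ± 0.24, its activator CDC20 at -0.12 ± 0.27, securin (PTTG1) at -0.01 ± 0.29 and CDCA3 at -0.36 ± 0.31. TOP2A, which untangles chromosomes, and the proliferation antigen MKI67 were at 0.02 ± 0.22 and 0.12 ± 0.26, and the transcription factor FOXM1 at 0.31 ± 0.27. Letter by letter, 19, 19, 28 and 41 of the 42 were lower in the side population in a, b, c and d, against 42.6%, 46.6%, 50.6% and 49.4% of all genes. In all, 8 tested genes were lower in the side population in all 4 letters (3.71% of all genes): CDK1, PLK1, NEK2, AURKB, BIRC5, CENPA, NDC80 and NUF2. None of the 42 was higher in all 4, where 5.25% of all genes were.

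**Figure D4:**
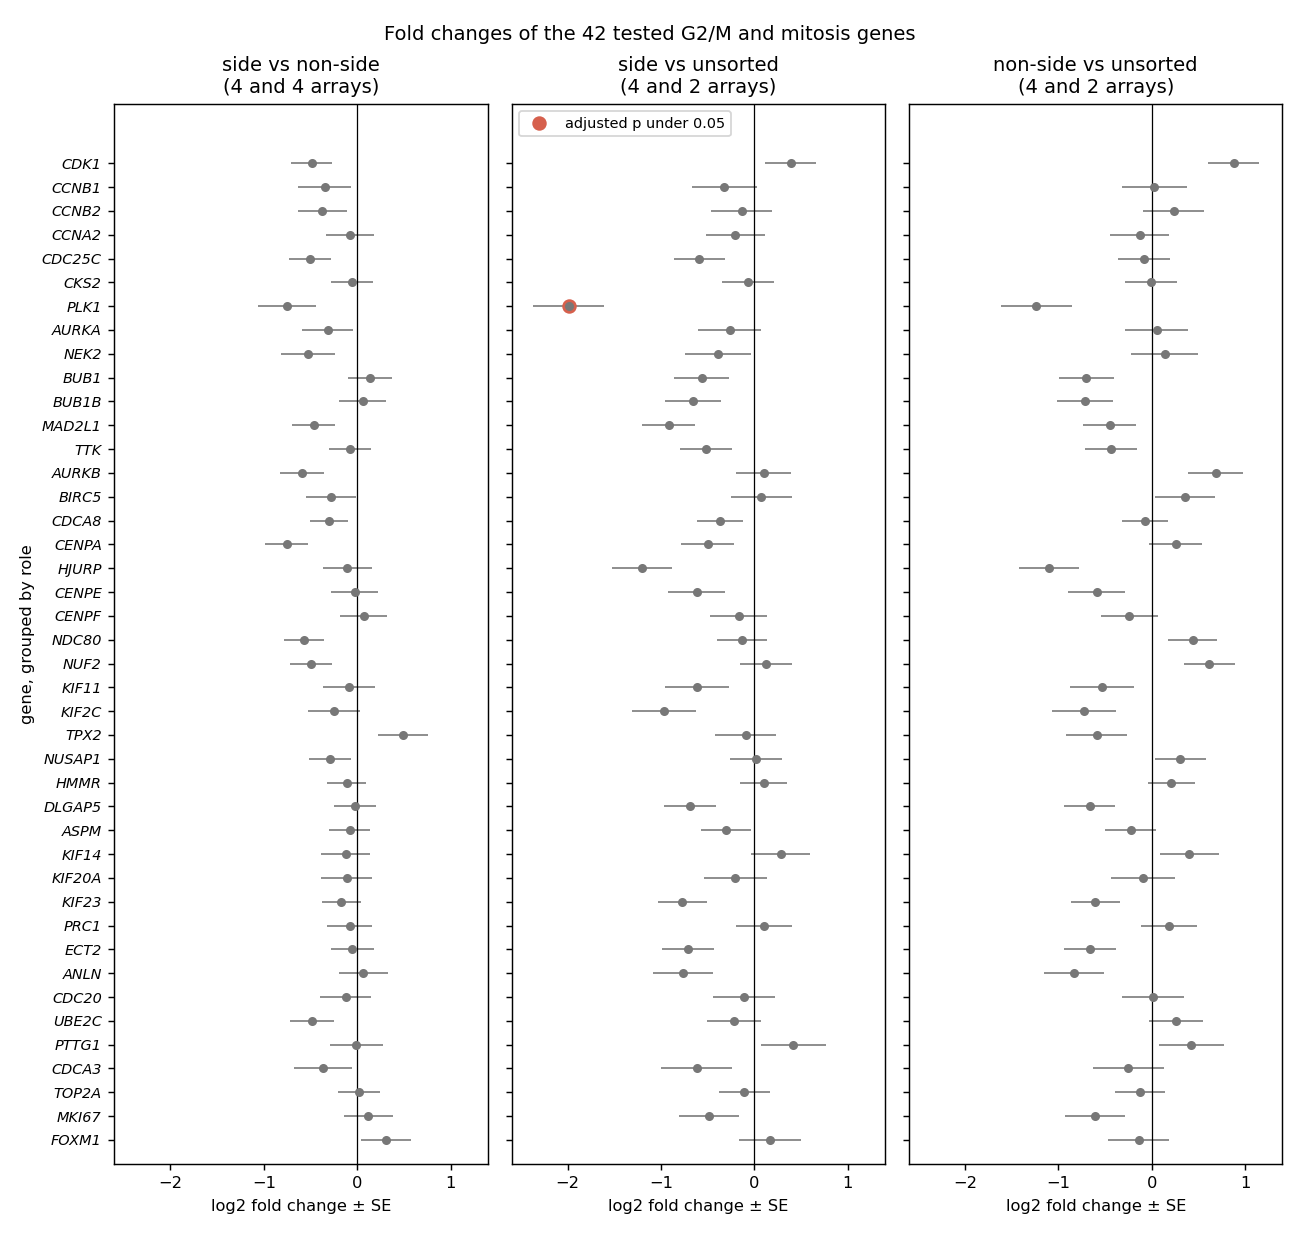
Log2 fold change ± SE of each of the 42 tested genes, by role, in side against non-side population, side population against unsorted and non-side population against unsorted, with genes of an adjusted p under 0.05 in red. PLK1 against unsorted cells is the only red point, at -1.99, and the left panel has 34 genes below 0.

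Both sorted groups were next set against the 2 unsorted arrays, which these comparisons share. PLK1 was the 1 gene of the list (2.38%) called in side population cells, where 2.45% of all genes were called. It was at 0.252 of its level in unsorted cells with the added constant. HJURP and the checkpoint, midzone and spindle genes MAD2L1, KIF23, KIF2C, ECT2 and ANLN had lower values in the side population on all 4 arrays, without passing the test. CDK1, NUF2 and AURKB went the other way in the non-side population, with mean values above unsorted cells that did not pass either. For the side population, limma called 1 of the 42, against 2.45% of all genes (1.89% higher and 0.556% lower), and 32 of the 42 were negative, against 46.6%. At an unadjusted p under 0.05 there were 10 (23.8%), all lower, where 17.2% of all genes had such a p and 6.63% were also lower. The median log2 fold change was -0.28 over the 42 and 0.04 over all genes tested. For the non-side population 0 of the 42 were called, against 3.66% of all genes (2.46% higher and 1.20% lower), and 25 were negative, against 50.9%. There 11 had an unadjusted p under 0.05, 8 of them lower, against 19.6% of all genes (9.56% lower), and the median was -0.11 against -0.01.

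PLK1 read 2018.8 and 1454.2 on the unsorted arrays. All 8 sorted arrays were below both, at 224.2 to 972.9. The log2 fold change was -1.99 ± 0.38 in the side population (SE, n = 4 and 2; limma adjusted p = 0.0164) and -1.24 ± 0.38 in the non-side population (adjusted p = 0.0859). The call rests on both unsorted arrays: without unsorted a it was -1.76 (adjusted p = 0.34) and without unsorted b -2.23 (adjusted p = 0.108). Over the AGS-labelled arrays alone it was -1.65 (adjusted p = 0.0572).

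HJURP read 984.8, 839.9, 489.1 and 701.4 in side population a to d, 1027.7, 597.8, 631.9 and 981.1 in non-side population a to d, and 1838.5 and 1553 in unsorted cells. Both sorted groups lay wholly below the unsorted arrays and overlapped each other. The log2 fold changes from unsorted cells were -1.20 ± 0.32 (adjusted p = 0.0625) for the side population and -1.10 ± 0.32 (adjusted p = 0.0726) for the non-side population. MAD2L1, the checkpoint protein that binds CDC20, read 3895.7, 5030.4, 5561.8 and 4057.6 in the side population and 8221.3 and 9147.1 in unsorted cells (-0.92 ± 0.29, adjusted p = 0.105). Its non-side values of 6044.6, 10004.1, 5237.9 and 5101.8 overlapped the unsorted ones through replicate b.

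KIF23, the kinesin of the central spindle, read 1272.1, 1179.5, 898 and 1008.2 in the side population, 1173.2, 944.6, 1270.5 and 1541.8 in the non-side population and 1847.8 and 1846.5 in unsorted cells. Every sorted array was lower than the unsorted ones (-0.77 ± 0.26, adjusted p = 0.128, for the side population). KIF2C, a kinesin that takes microtubules apart at centromeres, read 2591.6, 1904.3, 1521.5 and 1262.2 in the side population, 2764.3, 1403.4, 1685.2 and 2862 in the non-side population and 3596.8 and 3302.1 in unsorted cells (-0.97 ± 0.34 for the side population, adjusted p = 0.145). ANLN, a scaffold of the contractile ring, read 7092.8, 6693.8, 3388.5 and 3428.8, then 4579.7, 5735.4, 4415 and 3955.9, against 7967.5 and 8526.8 in unsorted cells. Its log2 fold changes were -0.77 ± 0.32 (adjusted p = 0.226) for the side population and -0.83 ± 0.32 (adjusted p = 0.166) for the non-side population. DLGAP5, a spindle assembly factor, was at -0.69 ± 0.27 and -0.67 ± 0.27 (adjusted p = 0.201 and 0.2).

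CDK1 read 9466.3 and 8191.3 in unsorted cells, below all 4 non-side arrays (0.88 ± 0.27, adjusted p = 0.0901) and overlapping the side population (0.39 ± 0.27, adjusted p = 0.503). Its other bright probe sets had the opposite sign for the side population, at -0.79 and -0.71, and a dimmer one was at 2.19, so the direction for the side population depends on the probe set. All 4 probe sets were positive for the non-side population, but the other bright ones were only at 0.22 and 0.11, and the dimmer one was at 3.39. Among the 42 genes, 14 had a side population wholly below the unsorted arrays, against 15.5% of all genes, and 1, securin (PTTG1), wholly above, against 21.4%. In the non-side population 12 lay wholly below, against 16.3% of all genes, and 3 wholly above (CDK1, NUF2 and NUSAP1), against 15.6%.

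The letters a and b, which hold the 2 side population arrays with no line in their source label, were then compared apart from letters c and d. In letters a and b the genes were mixed: TPX2, FOXM1, CENPF and BUB1B rose in the side population, and CENPA and AURKB fell. In letters c and d 40 of the 42 had negative fold changes, against 47.8% of all genes, and none passed. This split was known from earlier results to call many genes, so its adjusted p-values may be too small. In letters a and b limma called 6 of the 42 (14.3%), 4 higher and 2 lower, against 9.20% of all genes (7.13% higher and 2.07% lower). There 17 had an unadjusted p under 0.05, 8 of them lower, against 30.7% of all genes (9.81% lower), and 20 of the 42 were negative, against 44.7%. In letters c and d it called 0, against 0% of all genes, and 16 had an unadjusted p under 0.05, all lower, against 4.40% of all genes (2.90% lower). The median log2 fold change was 0.15 in a and b (0.10 over all genes) and -0.44 in c and d (0.01 over all genes). With 1 array left out these medians ran from -0.03 to 0.25 and from -0.60 to -0.28. Letters c and d hold both sorted arrays with a low 18S reading (851.2 in side d, 563 in non-side c). The part of that reading was not tested.

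FOXM1, which drives transcription of G2 and mitotic genes, read 2250.2 and 2187.6 in side population a and b and 1005.4 and 1136.6 in the non-side arrays of those letters. In letters c and d the order was turned, with 1230.2 and 1389.2 in the side population and 1813.1 and 1728 in the non-side population. The log2 fold changes were 1.05 ± 0.21 (SE, n = 2 and 2; adjusted p = 0.0223) and -0.44 ± 0.21 (adjusted p = 0.988). TPX2 read 7147.3 and 5450.5 against 3086.5 and 2621.7 in a and b (1.13 ± 0.23, adjusted p = 0.0221) and 2914.6 and 3457.5 against 4065.2 and 3034.4 in c and d (-0.15 ± 0.23). It was the 1 gene of the 42 that was not lower in the side population in letter d.

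CENPF, a large kinetochore protein, rose in letters a and b by 0.76 ± 0.19 (adjusted p = 0.0376) and was at -0.62 ± 0.19 in c and d (adjusted p = 0.988). BUB1B, the checkpoint pseudokinase, rose by 0.72 ± 0.20 (adjusted p = 0.0428) and was at -0.60 ± 0.20. CENPA fell by 1.07 ± 0.27 (adjusted p = 0.0339) and AURKB by 0.90 ± 0.23 (adjusted p = 0.0381) in a and b, and both were also negative in c and d, at -0.44 ± 0.27 and -0.27 ± 0.23. All 6 calls were lost without side population a, whose actin ratio was 3.34, or without non-side population b, where 1 and 0 of all genes were called. With side population b or either unsorted array left out 2 were called, against 581, 151 and 151 of all genes.

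**Figure D5:**
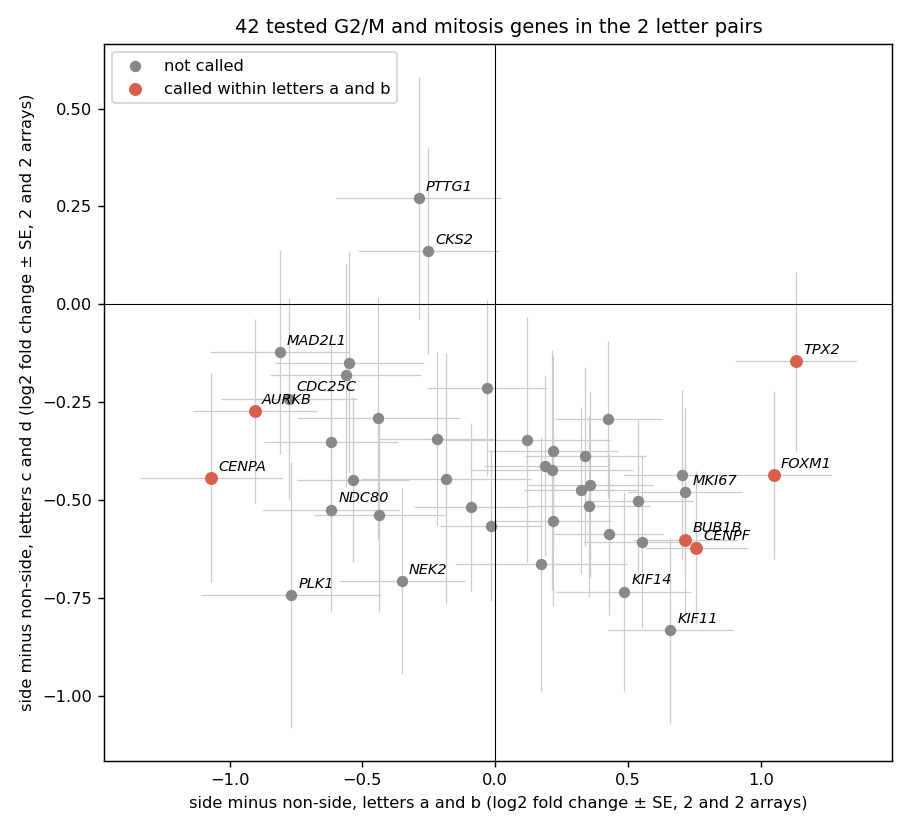
Log2 fold change ± SE of side over non-side population for the 42 tested genes, in letters a and b (horizontal) and letters c and d (vertical), with the 6 genes called in letters a and b in red. The points spread to both sides of 0 along the horizontal axis, while 40 of 42 lie below 0 on the vertical axis.

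In 15 of the 42 genes the side population was higher in both of a and b and lower in both of c and d, against 11.1% of all genes. They were CCNA2, BUB1, BUB1B, CENPE, CENPF, KIF11, ASPM, KIF14, KIF23, PRC1, ECT2, ANLN, TOP2A, MKI67 and FOXM1, and include 5 of the 6 genes of the midzone and cytokinesis. For some of them the pattern depends on the probe set. In a and b a further bright probe set was at -0.50 for CCNA2 and -0.42 for KIF14. It was at 0.84 for ANLN and 1.61 for TOP2A. The opposite pattern was found in 0 of the 42, against 10.3% of all genes. The difference between the letter pairs itself passed for 0 of the 42 by limma, with a smallest adjusted p of 0.0993, and for 0% of all genes. It was negative for 29 of the 42, against 56.5% of all genes. At an unadjusted p under 0.05 there were 17, all more negative in c and d, against 26.8% of all genes (15.6% in that direction). Without non-side population d, 6 of the 42 and 824 of the 9888 genes passed. KIF11, the motor that pushes spindle poles apart, had the largest difference at -1.49 ± 0.33. Within the sorted groups, a and b exceeded c and d by a median log2 of 0.57 in the side population (38 of 42 genes, 52.2% of all genes) and by 0.09 in the non-side population (22 of 42, 43.2% of all genes). The size of that difference regardless of sign had a median of 0.58 in the side population and 0.52 in the non-side population. KIF11 was higher in a and b by 0.63 in the side population and at -0.87 in the non-side population, and FOXM1 was at 0.76 and -0.72.

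Replicates of the side population were spread more widely for these genes than for most others. The median SD of the log2 values was 0.372 over the 42 genes and 0.304 over all genes tested, with 32 of the 42 above the latter. In the non-side population the values were 0.403 and 0.386, with 22 above, and for the 2 unsorted arrays 0.0832 and 0.119, with 13 above. CDCA3, which triggers destruction of a mitotic inhibitor, had the largest spread within groups (0.530), reading 3287.7, 3150.7, 2365 and 1680.9 in the side population, 3494.4, 5457.4, 1746.5 and 3404.3 in the non-side population and 3891.6 and 3889 in unsorted cells. PLK1 (0.513) and PTTG1 (0.484) came next among the tested genes. PTTG1 read 9866.9, 12846.7, 10826.9 and 7695, then 11193, 16885, 5474.2 and 10437.6, then 7693.5 and 7508.8, so its non-side replicates b and c bounded all 10 arrays.

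The tightest genes were CDCA8 (0.205), KIF23 (0.241) and HMMR, a spindle-associated hyaluronan receptor (0.253). CDCA8 read 1554.8, 1489.8, 1104.8 and 1149.2 in the side population, 1894, 1385.9, 1628.9 and 1602 in the non-side population and 1744.5 and 1652.4 in unsorted cells. Its c and d side population arrays were the lowest of the 10. HMMR read 5437.8, 4252.4, 4278.7 and 3142.3, then 4430.8, 4013.1, 4268.4 and 5583.7, then 3831.5 and 4019.3, with all 3 groups overlapping.

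Other cell cycle lists were read in the same way. Of 66 other mitosis genes 65 were tested, and by limma 0 passed in the central comparison, where 43 were negative with a median of -0.08, and 5 had an unadjusted p under 0.05, 4 of them lower. In letters c and d 58 of the 65 were negative with a median of -0.38, and in letters a and b 26 were, with a median of 0.22. Their smallest p-values between the sorted groups belonged to BORA, an activator of AURKA and PLK1 (-0.57 ± 0.19, adjusted p = 0.997), and PIMREG (-0.66 ± 0.24). Against unsorted cells 52 of the 65 were negative in the side population (median -0.33), where 46.6% of all genes were. In the non-side population 44 were negative (median -0.24), against 50.9% of all genes. The exception SKA2, a kinetochore subunit, rose in both sorted groups (1.005 ± 0.24 and 1.12 ± 0.24, adjusted p = 0.0439 and 0.0217). CDC27, a subunit of the anaphase-promoting complex, fell in the non-side population (-1.26 ± 0.28, adjusted p = 0.0236).

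Of 44 genes of G1/S and DNA replication, 25 were positive and 19 negative in the central comparison, and their median of 0.05 was that of all genes. Their mean log2 level was 11.04, 11.16, 10.57 and 10.62 in side population a to d and 11.00, 11.00, 10.62 and 10.69 in the non-side population, so it differed between the letter pairs in both sorted groups. The repressor E2F7 rose in both sorted groups against unsorted cells (1.44 ± 0.32 and 1.25 ± 0.32, adjusted p = 0.0346 and 0.0475). GINS4, a subunit of the replicative helicase, was wholly lower in the side population at -0.87 ± 0.23, and MCM3, another subunit, higher at 0.57 ± 0.24, and neither passed (adjusted p = 0.997 for each). Of the 15 tested regulators of mitotic transcription none passed in the comparisons of the 3 groups by limma, and 0 had an unadjusted p under 0.05. Within letters a and b 1 was called higher and 1 lower, where 9.20% of all genes were called. There 6 of the 15 had an unadjusted p under 0.05, against 30.7% of all genes. MYBL2, which encodes B-MYB, read 6170.4, 3768.6, 1593.6 and 2651 in side population a to d, 3999.3, 1814.5, 2685.3 and 3095.5 in the non-side population and 5917.8 and 4578.1 in unsorted cells. Like FOXM1 it was higher in a and b than in c and d among the side population arrays.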

How the data were processed

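Total RNA of 10 samples was hybridised as biotin-labelled target to single-colour arrays of 54675 probe sets. The authors deposited linear intensity values from 0.1 to 74993.2. Per the submitters' processing notes GCOS 1.4 was used, with its role and settings not given in the sources used here. Trimmed means, with 2% of values left out at each end, were 500.065 to 500.095, so the arrays were already scaled and were not scaled again.

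Before log2, 6.1 (the 10th percentile over all arrays) was added to each value, which understates the change of dim genes. The platform annotation gave 41097 probe sets 1 symbol, 1801 several and 11777 none, and 41043 of the 41097 were found in RefSeq's gene table. The probe set of highest mean intensity stood for each of 19775 genes. Of the 43 genes described, 23 had further probe sets (40 in all), of which 10 had the opposite sign between side and non-side population. Genes at or above the median of mean log2 values, an intensity of 149, were tested, 9888 in all.

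Groups were compared with limma 3.58.1 in R 4.3.3 (lmFit and eBayes with a trend, tested on simulated data) over all 10 arrays, with Benjamini-Hochberg adjustment over the 9888 genes and a call at an adjusted p under 0.05. The letter pairs were fitted in a second model. The SE is that of the fit, and the number of arrays limits the precision. Depth cannot be given for arrays. Other constants, filters, scaling, probe set rules, sample choices, blocks and leaving out each array were tried as alternatives. The genes, the lists and the letter pairs were chosen with earlier results of these data known. The genes named with full values were those called or of the 5 smallest p-values in each comparison of groups, of the 3 largest and 3 smallest spreads, or of 1 sign in all 4 letters. Some genes of the other lists are not reported here.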

Additional observations from a re-analysis of the deposited data

Results flagged for a closer look

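CDK1 in the non-side population had 1 array far from the others of its group. Its log2 value was 13.44 in replicate c and 14.13 to 14.20 in replicates a, b and d, a gap of 0.907 of the whole range of the group, above Dixon's critical value for a group of 4. Replicate c is also the non-side array with the low 18S control reading. The part of that reading in the result was not tested. Such a gap is met by chance in about 1 in 20 groups, and 46 groups were examined.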

How the results depend on the processing

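Between side and non-side population 0 of the 42 genes were called under every alternative tried, and the median log2 fold change stayed negative, at -0.12 in the reported setting. It moved to -0.44 over the AGS-labelled arrays alone and ran from -0.30 to -0.05 when 1 array was left out, nearest to 0 without side population d. With the replicate block, the letter as a block, it was -0.12 and 0 genes of the list were called. The labels do not say whether the letters pair the arrays. Deviations of same-letter arrays correlated at 0.21, 0.50, -0.11 and 0.36, and those of arrays with different letters at -0.478 to 0.431. Between side population and unsorted cells, 1 gene of the list was called, with 0 at a filter on the 75th percentile, 0 over AGS-labelled arrays, 2 with the mean of all probe sets, 3 with only the groups compared, 3 with letter pairs as a batch, and 0 to 3 with 1 array left out. PLK1, the called gene, did not pass the filter on the 75th percentile and so was not tested in that setting. The median of this comparison over the 43 genes, -0.30, moved to -0.57 over AGS-labelled arrays. Between non-side population and unsorted cells, the count of 0 became 1 with quantile normalization, 1 with the mean of all probe sets, 4 with letter pairs as a batch, and 0 to 2 with 1 array left out. In letters a and b the 6 calls, among 910 over all genes, became 3 (333) without a filter, 3 (502) with quantile normalization, 3 (468) without a trend, 1 (2) with the mean of all probe sets, and 0 to 6 (0 to 1134) with 1 array left out. With the filter on the 75th percentile there were 8 calls (917) in letters a and b. The median of 0.15 in these letters turned to -0.0899 with the mean of all probe sets. The difference between the letter pairs had 0 to 6 calls with 1 array left out, against 0 to 824 over all genes. The cause of these shifts was not tested. Side population against unsorted had 242 calls over all genes, 100 at the filter on the 75th percentile and 144 with the mean of all probe sets. Non-side population against unsorted had 362, then 307 with quantile normalization and 321 with the mean of all probe sets. Over the alternatives other than leaving 1 array out, these all-gene counts were 91 to 785 and 146 to 944. Over all genes the calls ranged from 10 to 785 for side population against unsorted and from 19 to 944 for non-side population against unsorted. Of 508 alternatives for single genes, 447 kept direction and side of the threshold, 48 lost the call, 13 gained one and 0 turned. The 447 include genes that were never called, such as all those between side and non-side population, and only a called gene could lose a call. In letters a and b the call was lost in 12 of 18 alternatives for BUB1B, 10 of 18 for CENPF and 9 of 18 for AURKB. It was lost in 7 of 17 for CENPA, 4 of 18 for FOXM1 and 3 of 18 for TPX2. For PLK1 against unsorted cells it was lost in 3 of 20. The 2 unsorted arrays limit both comparisons with them, and INCENP lies too near the array medians for a firm fold change.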
